A study of Mus musculus with 8 samples.

Results

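The odorant receptors described here are the 35 genes of mouse chromosome 16 whose symbols run from Olfr161 to Olfr209. Membership was set by symbol, as every row of the deposited table named Olfr with a number in that range. The 9 symbols in that range that mark pseudogenes (-ps) were left out. This set was chosen with earlier results of these data known. The table holds 54982 genes, of which 1113 are odorant receptors by the same form of name. RNA was sequenced from dissected olfactory mucosa, the nasal tissue in which olfactory sensory neurons sit among supporting and basal cells. The deletion group was 4 libraries from mice carrying the T element deletion (ΔTE1+2), and the control group was 4 libraries labelled wild type for that deletion (ΔTE1+2 WT). Animals of both groups were 129S6;C57BL/6J, labelled male and postnatal day 30. The sources used here give neither zygosity nor the positions of the deleted segments. T elements are, in the study's title, enhancers in cis of the trace amine-associated receptor (Taar) genes, which lie on another chromosome than the receptors described here.

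Odorant receptors are G protein-coupled receptors on the cilia of olfactory sensory neurons. Each mature neuron transcribes 1 receptor allele at a high level, so in whole mucosa the level of a receptor gene moves with the number of neurons that chose it. In bulk samples, fewer neurons of a receptor and less RNA per neuron cannot be told apart. Receptor genes lie in arrays of related copies that grew by duplication, most are silenced in any 1 neuron, and enhancers in and between arrays take part in the choice. The chromosome 16 receptors are of class II, the large class of tetrapod receptors, most of them with a single coding exon, and no ligand is given for any of them in the sources used here.

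The 35 genes lie in 3 places on GRCm38. Olfr161, the only one of the 35 in its place, lies at chromosome 16, 3591042 to 3599323. The receptor Olfr15, outside the number range, starts nearby at 3830878. The middle cluster of 8 genes, Olfr164 to Olfr171, spans 345.8 kb from 19284104 to 19629916. The distal cluster of 26 genes, Olfr172 to Olfr209, spans 604.5 kb from 58759544 to 59363993. GENCODE M21 annotates 33 of the genes as protein coding and 2, Olfr192 and Olfr197, as polymorphic pseudogenes. The gene spans of Olfr180 and Olfr181, introns included, overlap on the same strand over 4049 bases. Overlap of their exons was not computed, so whether reads are split between them is uncertain.

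The arrays hold close copies. For 34 of the 35 genes the most similar coding sequence among all receptors was another chromosome 16 receptor, and Olfr161, closest to Olfr374 of another chromosome at 70.07% identity, was the exception. Coding identity to the closest receptor ran from 69.66% (Olfr167 and Olfr166) to 97.13% (Olfr170 and Olfr171). It was at least 90% for 22 genes and at least 95% for 13. Translated receptors of the distal cluster shared a median of 57.61% of residues over 276 pairs, against 37.44% for 192 pairs of a middle and a distal receptor. Handling of reads that map to more than 1 gene is not given in the sources used here, so values of close copies may be split or partly lost. The closest pair is shown over the 60 coding bases in which it differs most (GENCODE M21 transcripts of GRCm38, coding strand), with the 5 mismatches in capitals.
Olfr170, coding bases 566 to 625: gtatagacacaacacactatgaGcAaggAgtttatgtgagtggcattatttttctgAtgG
Olfr171, coding bases 569 to 628: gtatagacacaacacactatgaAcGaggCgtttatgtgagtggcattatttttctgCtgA

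The 2 polymorphic pseudogenes differ from their closest relatives by a shifted reading frame, and they return below because both stood apart in 1 library. Olfr192 has 925 annotated coding bases, not a multiple of 3, and is 96.54% identical to Olfr190. It carries 1 base more than Olfr190 after coding base 81, and 3 bases more after coding base 922. The single extra base is in capitals, and its place within the run of t is arbitrary.
Olfr192, coding bases 52 to 112: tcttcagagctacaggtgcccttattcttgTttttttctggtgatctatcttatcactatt
Olfr190, coding bases 52 to 111: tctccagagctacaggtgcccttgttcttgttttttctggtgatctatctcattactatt
Olfr197 has 926 annotated coding bases, is 85.44% identical to Olfr196, and lacks 4 bases after coding base 276. The 4 bases that Olfr196 holds there are in capitals. Olfr197 also carries 3 bases more than Olfr196 after coding base 923.
Olfr196, coding bases 247 to 310: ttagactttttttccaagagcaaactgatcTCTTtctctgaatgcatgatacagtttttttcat
Olfr197, coding bases 247 to 306: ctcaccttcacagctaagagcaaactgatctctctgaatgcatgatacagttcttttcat
A polymorphic pseudogene is one that is broken in the reference strain and can be intact in others, and the strain that gave each allele in these libraries was not tested.

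Library depth ran from 36359734 to 44114750 reads in deletion libraries and from 31655524 to 50748777 reads in control libraries. The 35 receptors took 11339 to 13765 reads of a deletion library and 8377 to 16709 of a control library. The Taar genes separated the groups: 12 of 12 tested Taar genes fell in limma (Benjamini-Hochberg adjustment), with a summed level of 12.11 to 75.8 scaled reads in deletion libraries against 2899 to 3788 in control libraries. Scaled reads are the deposited read counts divided by a factor for each library. By neuron markers the tissue matched its label. Mature olfactory neuron markers summed to 460700 to 479400 scaled reads in deletion libraries and 377500 to 479200 in control libraries. The 2 vomeronasal markers summed to 12.32 to 22.02 in deletion libraries and 8.85 to 33.49 in control libraries. Of 3 olfactory bulb markers, Gad1 had 3.249 to 17.35 scaled reads in deletion libraries and 12.78 to 92.42 in control libraries. Its limma log2 fold change was -2.14 (p 0.00634, Benjamini-Hochberg adjusted 0.869). Th had 1.101 to 5.479 and 4.917 to 44.36, and failed the low-count filter. Both were highest in control replicate 2. Eomes was far higher, at 519.7 to 640.2 scaled reads in deletion libraries and 381.7 to 636.2 in control libraries. Its log2 fold change was 0.27. The part of bulb tissue in the receptors' values was not tested.

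A pair of libraries stood apart. Deletion replicate 3 is labelled male, but held 15300 scaled reads of Xist, the RNA of the inactive X chromosome, against 4.86 to 86.88 in the other 7 libraries. It held 5.69 scaled reads of Ddx3y, 17.06 of Uty, 7.58 of Kdm5d and 12.32 of Eif2s3y, all Y-linked, against at least 1290 of each elsewhere. Control replicate 2 had the lowest sum of mature neuron markers, 377500 scaled reads against 457800 to 479400 in the other 7 libraries. It also had the lowest sum of respiratory epithelium markers, 169000 against 252600 to 356700. Values without these libraries are given beside the results they move most, and the part of sex or of tissue make-up in those values was not tested.

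The 35 receptors spanned a wide range of levels. In control libraries the mean ran from 7.289 scaled reads per kilobase of annotated exon (Olfr197) to 748.5 (Olfr166), a ratio of 102.7. The median of the 35 was 89.17 per kilobase, and the median of all 1038 tested receptors was 54.56, with 24 of the 35 above it. Olfr166 was the 5th highest of the 1038 receptors and took 29.2% of the summed scaled reads of the 35 genes in deletion libraries and 28.4% in control libraries.

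**Figure D1:**
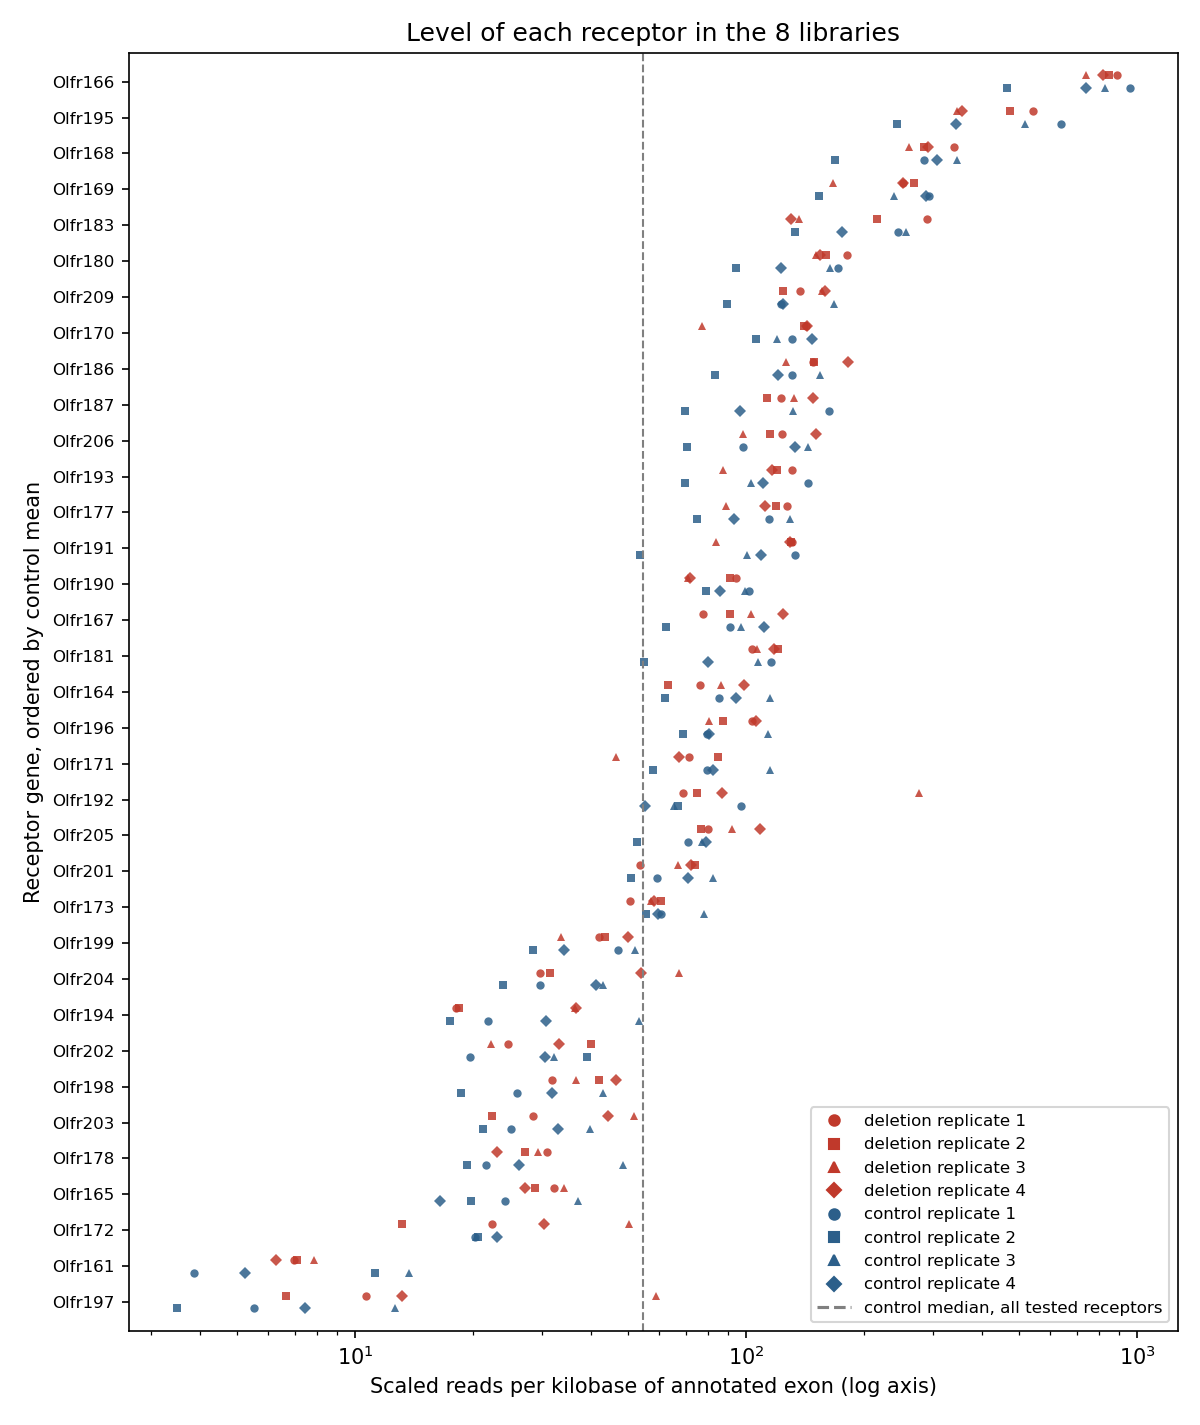
Scaled reads per kilobase of annotated exon (log axis) for each of the 35 receptors, ordered by control mean, with 1 point per library and the 4 deletion libraries drawn above the 4 control libraries. The order runs from Olfr197 at a control mean of 7.289 to Olfr166 at 748.5, and the groups overlap in each of the 35 genes.

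Olfr166 lies in the middle cluster at 19483694 to 19489882 on the plus strand. It had 3887, 3702, 3247 and 3589 scaled reads in deletion replicates 1 to 4, and 4197, 2040, 3633 and 3246 in control replicates 1 to 4. Control replicate 2 was the lowest of the 8 and control replicate 1 the highest, so the control libraries enclosed all deletion libraries. The log2 fold change, deletion minus control on the log2(scaled reads + 1) scale, was 0.18 ± 0.19 (SE), with a limma adjusted p of 0.872 (Benjamini-Hochberg over 21974 genes). Without control replicate 2 it was -0.029 ± 0.094 (SE).

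Its closest copy Olfr168, 95.83% identical in coding sequence, lay at a lower level. It had 751.6, 628.7, 574.4 and 642.9 scaled reads in deletion libraries and 630.2, 371.5, 763.8 and 678.5 in control libraries. The groups overlapped, control replicate 2 was again the lowest, and the log2 fold change was 0.13 ± 0.20 (SE), or -0.09 ± 0.11 without that library. Olfr169, the third of the highly expressed receptors of the middle cluster, had 626, 669.4, 414.2 and 625.5 scaled reads in deletion libraries and 728.2, 381.7, 595 and 715.9 in control libraries. The lowest of each group were deletion replicate 3 and control replicate 2, the groups overlapped, and the log2 fold change was -0.03 ± 0.22 (SE), or -0.24 without control replicate 2.

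In the distal cluster the highest levels per kilobase were those of Olfr195, Olfr183 and Olfr180. Olfr195 had 1126, 986.6, 720.4 and 742.4 scaled reads in deletion libraries and 1330, 506.5, 1073 and 714.9 in control libraries. Its highest and lowest controls lay outside all deletion libraries, and its log2 fold change was 0.05 ± 0.29 (SE), or -0.20 ± 0.25 without control replicate 2. Olfr183 had 699.6, 521.9, 328.9 and 314.1 scaled reads in deletion libraries and 591.3, 320.7, 619.5 and 424.8 in control libraries. Here the highest and the lowest of the 8 libraries were both deletion libraries, and the log2 fold change was -0.10 ± 0.29 (SE), or -0.29 without control replicate 2.

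Olfr180 had 337.9, 299.5, 282.5 and 289.5 scaled reads in deletion libraries and 320.8, 175.6, 306.5 and 229.1 in control libraries, with a log2 fold change of 0.27 ± 0.18 (SE). Its overlapping neighbour Olfr181 had 251.3, 294, 259.7 and 286.7 in deletion libraries and 281.1, 133.1, 260.2 and 193.7 in control libraries, with a log2 fold change of 0.38 ± 0.21 (SE). In both genes control replicates 2 and 4 lay below all deletion libraries while control replicates 1 and 3 lay among them. Without control replicate 2 the log2 fold change was 0.09 ± 0.14 (SE) for Olfr180 and 0.17 ± 0.15 for Olfr181. Because the spans of these genes overlap, they may share reads and may not be independent measurements.

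The deletion libraries did not differ from the control libraries in any of the 35 receptors by the test. All 35 passed the filter on low counts, and 0 were called by limma at a Benjamini-Hochberg adjusted p under 0.05, where 0.0728% of the 21974 tested genes were called. At an unadjusted p under 0.05 limma also called 0 of 35, against 3.5% of all tested genes and 5.68% of all tested receptors. Run on whole reads, edgeR (quasi-likelihood) and DESeq2 each called 0 of 35 at an adjusted p under 0.05, where they called 0.0728% and 0.105% of all genes. At an unadjusted p under 0.05 they each counted 1, Olfr197, against 4.15% and 4.53% of all genes. The smallest limma p before adjustment was 0.0703 (Olfr205) and the adjusted p-values ran from 0.869 to 0.992. The labels number 4 samples a group without tying each to an animal, so p-values measure only the spread between these samples, which may be technical. In the authors' deposited table, which gives a p-value for 33 of the 35 and none for Olfr192 and Olfr197, 0 had an adjusted p under 0.05 and the smallest was 0.923.

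These null calls have limits that differ between genes. The standard error of the log2 fold change had a median of 0.22 and ran from 0.12 (Olfr190) to 0.61 (Olfr197). The 95% confidence interval of limma lay within a 2-fold change in either direction for 32 of the 35 receptors, and within a 1.5-fold change for 12. In 0 of 35 did the deletion libraries all lie above or all below the control libraries, against 2.2% of all tested genes.

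**Figure D2:**
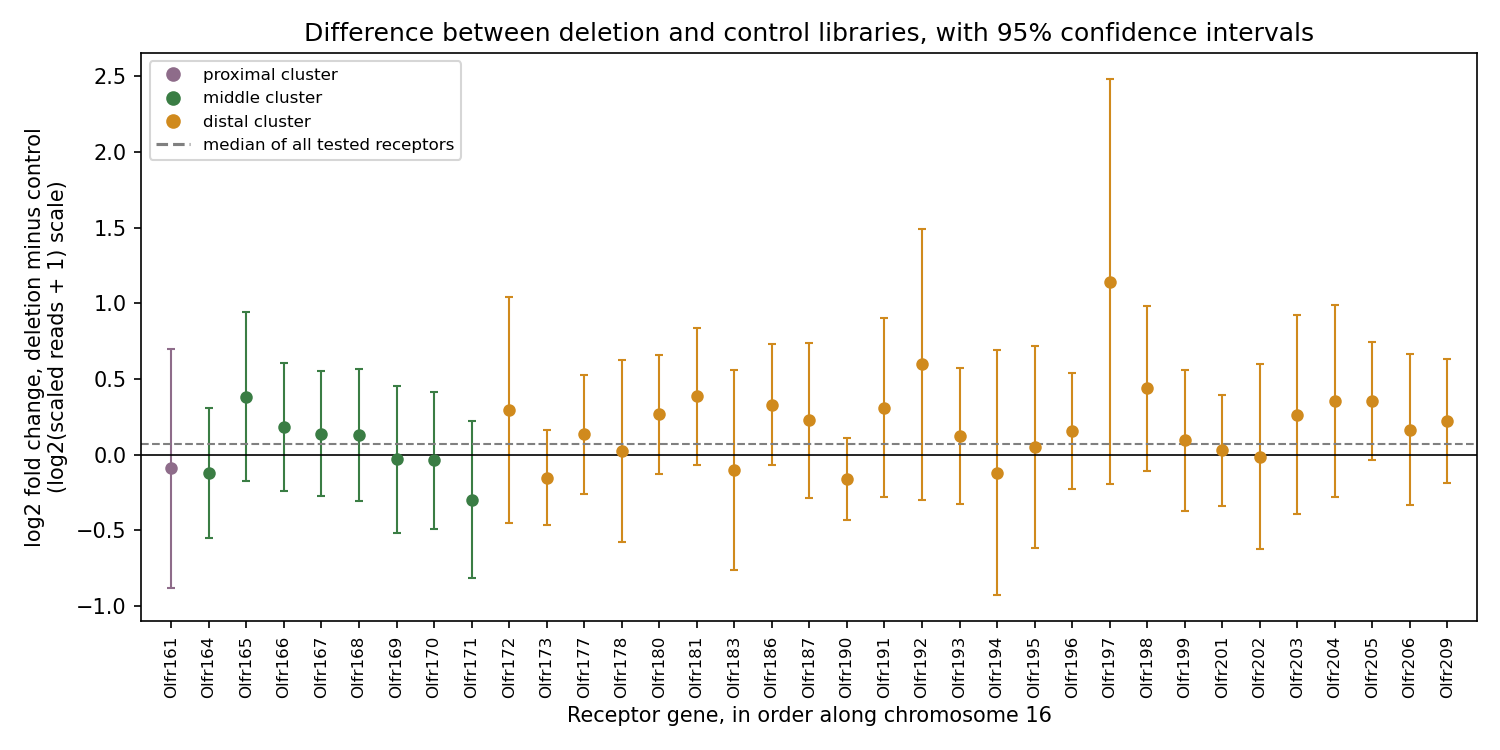
Log2 fold change of each receptor, deletion minus control, in order along chromosome 16 and coloured by cluster, with 95% confidence intervals from limma and a dashed line at the median of all tested receptors. Every interval includes 0, the widest belongs to Olfr197 at 1.14, and most of the distal cluster's points sit above 0.

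More of the receptors had a positive than a negative fold change, and the excess depended on single control libraries. Of the 35, 25 were higher in deletion libraries by point estimate and 10 were lower (71.4% higher), against 62.9% higher among all tested receptors and 54.4% among all tested genes. The median log2 fold change was 0.14 over the 35, 0.07 over all tested receptors and 0.02 over all tested genes. Without control replicate 2, 17 of the 35 were higher and their median was -0.0078. Without control replicate 3, 30 were higher and the median was 0.25. The share of all tested receptors without either control is not given here. Without deletion replicate 3, 27 of the 35 were higher, against 62% of all tested receptors. Scaled to the summed odorant receptor value, 22 of the 35 were higher, against 53.2% of all tested receptors. Respiratory epithelium markers moved with the groups too: 5 of 5 were higher in deletion libraries by point estimate, 0 by the adjusted test, and they summed to 326500 to 356700 scaled reads in deletion libraries against 169000 to 313800 in control libraries. The part of tissue make-up in the receptors' values was not tested. By cluster, 21 of 26 distal receptors were higher with a median of 0.19, 4 of 8 middle receptors were higher with a median of 0.05, and Olfr161 had -0.09. Without control replicate 2, 15 of 26 distal receptors were higher with a median of 0.05, 1 of 8 middle receptors was higher with a median of -0.10, and Olfr161 had 0.10. Without deletion replicate 3, 21 of 26 distal receptors were higher with a median of 0.19, and 6 of 8 middle receptors were higher with a median of 0.15.

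The summed level showed the same dependence. The 35 receptors summed to 321.1, 311.9, 270.5 and 315.4 CPM (reads scaled to the library total) in deletion libraries and to 329.2, 207.3, 328.1 and 289.7 in control libraries. Control replicate 2 was the lowest of the 8 and the other 7 overlapped between the groups. The mean was 304.7 ± 23.13 CPM in deletion libraries and 288.6 ± 57.21 in control libraries (SD, n = 4 each), a difference of 5.594% that became -3.468% without control replicate 2. As a share of all odorant receptor reads, the 35 took 4.295% ± 0.1856 in deletion libraries and 4.117% ± 0.5635 in control libraries (SD, n = 4 each). Without control replicate 2, at 3.301%, the control share was 4.389% ± 0.1799 (SD, n = 3), above that of the deletion libraries.

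The receptors with the smallest p-values among those higher in deletion libraries were Olfr205, Olfr197, Olfr181 and Olfr186. Olfr205, of the distal cluster, had 132.1, 126.6, 152.6 and 179.9 scaled reads in deletion libraries and 117.4, 86.88, 127.5 and 130.8 in control libraries. Deletion replicates 1, 3 and 4 lay above all controls and deletion replicate 2 among them, with a log2 fold change of 0.36 ± 0.18 (SE) and a limma adjusted p of 0.869 (Benjamini-Hochberg). Without control replicate 2 the log2 fold change was 0.225. Olfr186, also distal, had 346.6, 347.9, 295.7 and 425.6 in deletion libraries and 306.2, 194.1, 360.6 and 282.2 in control libraries. The groups overlapped, control replicate 2 was far the lowest, and the log2 fold change was 0.33 ± 0.18 (SE), or 0.16 without control replicate 2.

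Among those lower in deletion libraries the smallest p-values were those of Olfr190, Olfr171, Olfr173 and Olfr164. Olfr190 had 777.6, 747.6, 584.8 and 590.8 scaled reads in deletion libraries and 835.9, 649.7, 819.1 and 707 in control libraries. Deletion replicates 3 and 4 lay below all controls, and this gene had the tightest estimate of the 35, a log2 fold change of -0.16 ± 0.12 (SE) with a 95% confidence interval from -0.43 to 0.11, and -0.23 without control replicate 2. Olfr171 had 100.7, 118.9, 65.4 and 94.97 in deletion libraries and 111.8, 81.33, 162.3 and 116 in control libraries. Its log2 fold change of -0.30 ± 0.24 (SE) was the most negative of the 35 (-0.46 without control replicate 2), and deletion replicate 3 and control replicate 3 were its lowest and highest libraries.

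Olfr173 had 145.1, 174, 164 and 167.1 scaled reads in deletion libraries and 174.1, 159, 224.1 and 171.1 in control libraries, with a log2 fold change of -0.15 ± 0.14 (SE). Olfr164 had 219.9, 181.7, 248.3 and 284.9 in deletion libraries and 246.2, 178.4, 332.3 and 271.4 in control libraries, with a log2 fold change of -0.12 ± 0.20 (SE), or -0.28 without control replicate 2. In both genes control replicate 3 was the highest of the 8 libraries, and the groups overlapped.

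The remaining 13 receptors had limma log2 fold changes between -0.01 (Olfr202) and 0.44 (Olfr198), and the groups overlapped in each. Olfr198, of the distal cluster, had 72.56, 95.79, 83.41 and 105.9 scaled reads in deletion libraries and 59.13, 42.52, 97.88 and 72.77 in control libraries. Deletion replicate 4 was its highest library and control replicate 2 its lowest, with a log2 fold change of 0.44 ± 0.25 (SE), or 0.24 ± 0.21 without control replicate 2. Olfr165, the 89.31% identical copy of Olfr164 in the middle cluster, had 61.73, 55.05, 65.4 and 52.05 in deletion libraries and 46.17, 37.89, 70.84 and 31.47 in control libraries. All controls but replicate 3 lay below its deletion libraries, and its log2 fold change was 0.38 ± 0.25 (SE) while that of Olfr164 was negative. Olfr167, the most divergent middle receptor, averaged 735.3 ± 148.5 scaled reads in deletion libraries and 672.4 ± 153.2 in control libraries (SD, n = 4 each).

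Several of the 13 are close distal copies of one another. Olfr191 averaged 457.3 ± 89.43 scaled reads in deletion libraries and 381.8 ± 128.7 in control libraries, and its 96.44% identical copy Olfr193 averaged 326.5 ± 53.78 in deletion libraries and 306.6 ± 87.16 in control libraries (SD, n = 4 each). Olfr201 averaged 246.8 ± 34.37 in deletion libraries and 244 ± 51.15 in control libraries, and its 96.86% identical copy Olfr199 averaged 115.4 ± 18.17 in deletion libraries and 110.2 ± 29.71 in control libraries (SD, n = 4 each). In these copies the group means differed by less than the SD of the control libraries. The same held for Olfr177, Olfr178, Olfr196, Olfr202, Olfr206 and Olfr209, whose deletion means ran from 39.64 (Olfr202) to 268.1 (Olfr177) scaled reads and whose control means ran from 40.12 (Olfr202) to 247.1 (Olfr177).

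Spread between control libraries differed from gene to gene. Of receptors with a control mean over 100 scaled reads, Olfr194, Olfr195 and Olfr187 had the largest coefficients of variation, 51.6%, 40.49% and 35.41%. Olfr194 had 67.15, 68.27, 135.5 and 136.1 scaled reads in deletion libraries and 81, 64.7, 197.1 and 114.1 in control libraries, so that replicates 1 and 2 were lower than replicates 3 and 4 in each group. Olfr187 had 162.5, 149.7, 176.3 and 196.3 in deletion libraries and 216.3, 92.42, 175.2 and 127.8 in control libraries, where the controls enclosed all deletion libraries. Its log2 fold change was 0.23 ± 0.23 (SE), or 0.0097 without control replicate 2. Olfr190, Olfr170 and Olfr173 had the smallest, 11.88%, 13.74% and 15.8%.

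Deletion replicate 3 stood apart in a few distal receptors. After scaling each library to its summed odorant receptor value, Olfr172, Olfr192 and Olfr197 were at least 1.5-fold above every other library in deletion replicate 3. These are 3 of the 35 genes, or 8.57%, and all 3 are distal. Among all 1038 tested receptors, 4 were as far above in that library, the other one being Olfr66 of chromosome 7, and 5 were as far below, together 0.867%. In the other 7 libraries the only chromosome 16 receptor past that limit was Olfr161, low in control replicate 1. The limit of 1.5-fold was chosen after the values were seen, and no test was made of this count. The sum of 2 dorsal zone markers, Nqo1 and Acsm4, was also highest in deletion replicate 3, at 57010 scaled reads against 31170 to 47030 in the other 7 libraries, and its part in these values was not tested.

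Olfr192 had 80.14, 86.98, 320.4 and 100.5 scaled reads in deletion libraries and 112.6, 77.64, 75.99 and 63.92 in control libraries. Only deletion replicate 3, with 338 reads, stood outside the range of the others. The log2 fold change was 0.60 ± 0.40 (SE), and 0.14 ± 0.22 without that library. Its close copy Olfr190, whose sequence is shown above beside that of Olfr192, was in that library at 584.8 scaled reads, its lowest of the 8. Deletion replicate 4 was close, at 590.8 scaled reads of Olfr190. After scaling to the summed odorant receptor value, deletion replicate 4 was the lowest library for Olfr190.

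Olfr197 had 14.08, 8.81, 77.72 and 17.35 scaled reads in deletion libraries and 7.29, 4.62, 16.74 and 9.83 in control libraries. It was the lowest expressed of the 35 in controls, and deletion replicate 3, with 82 reads, held the high value. Its log2 fold change of 1.14 ± 0.61 (SE) was the most positive of the 35 and became 0.52 ± 0.49 without that library. Olfr172 had 41.16, 24.22, 91.94 and 55.71 in deletion libraries and 37.26, 37.89, 37.35 and 42.28 in control libraries. Its log2 fold change was 0.30 ± 0.34 (SE), and -0.02 ± 0.30 without deletion replicate 3.

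**Figure D3:**
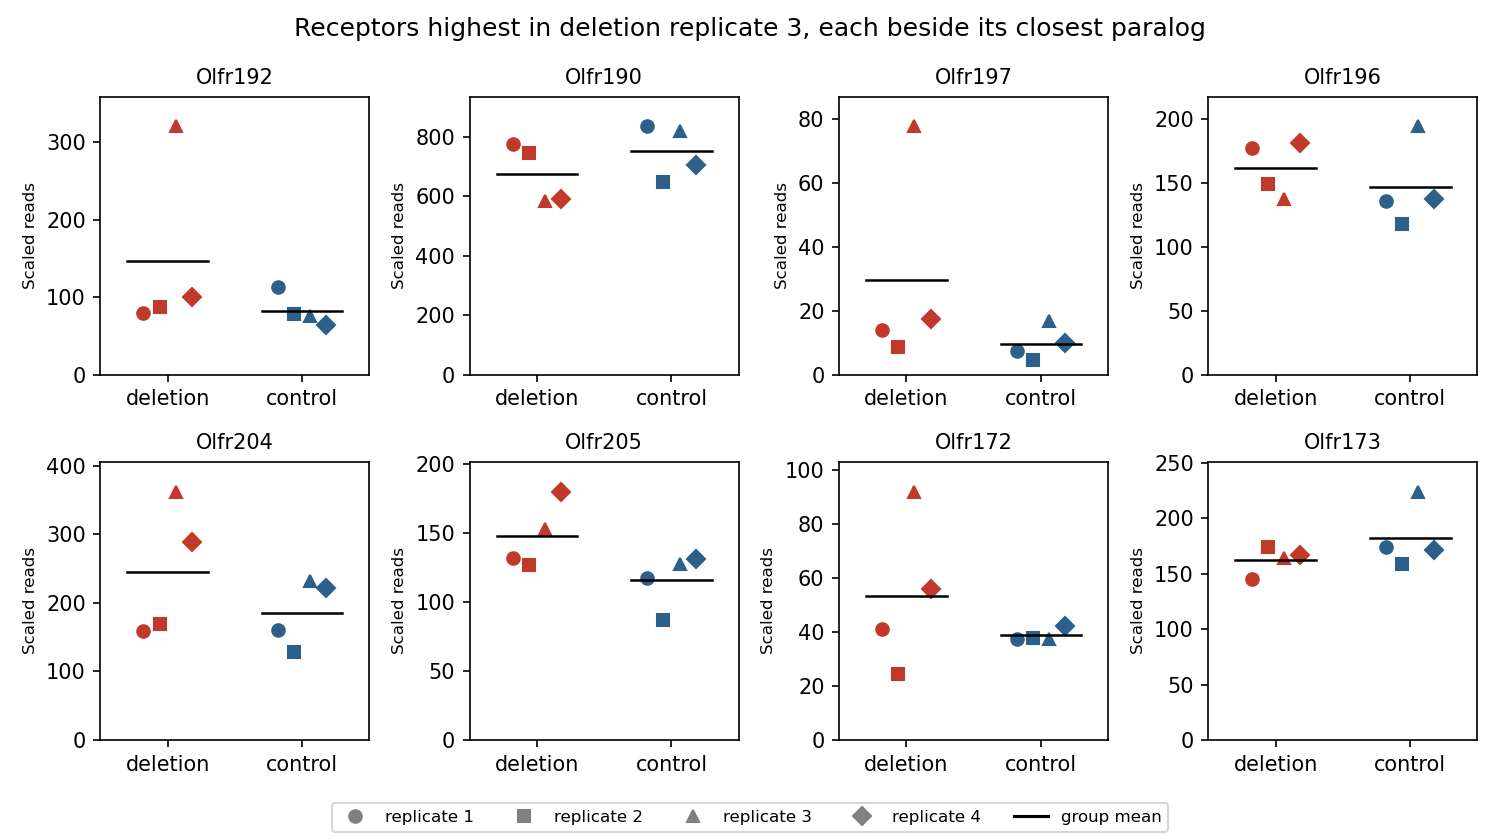
Scaled reads of 4 receptors that were highest in deletion replicate 3, Olfr192, Olfr197, Olfr204 and Olfr172, each with its closest paralog to its right, and deletion libraries left of control libraries in each panel. Triangles mark replicate 3 and black lines the group means; the triangle of the deletion group is at 320.4 for Olfr192, 77.72 for Olfr197 and 91.94 for Olfr172.

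Other distal receptors were highest in the same library by less. Olfr204 had 159.2, 169.6, 362.1 and 288.6 scaled reads in deletion libraries and 159.6, 128.5, 231.8 and 222.2 in control libraries. Olfr203 had 43.32, 34.13, 78.67 and 67.58 in deletion libraries and 38.07, 32.35, 60.53 and 50.15 in control libraries. In both genes replicates 3 and 4 were above replicates 1 and 2 in each group, and same-numbered samples are not known to be paired.

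In the middle cluster 3 neighbouring receptors, Olfr169 to Olfr171, were low in deletion replicate 3, while Olfr165 had its highest deletion value there. Olfr170 had 204.7, 201.5, 110.9 and 205.5 scaled reads in deletion libraries and 187.9, 152.5, 172.6 and 211.4 in control libraries. Deletion replicate 3 was the lowest of the 8, and Olfr169 and Olfr171 had their lowest deletion value in the same library. Without deletion replicate 3 the log2 fold change of Olfr170 was 0.18 in place of -0.04, and that of Olfr169 was 0.13 in place of -0.03. Olfr169, Olfr170 and Olfr171 are close copies in coding sequence, at least 95% identical to the nearest of them, so their values may share reads.

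**Figure D4:**
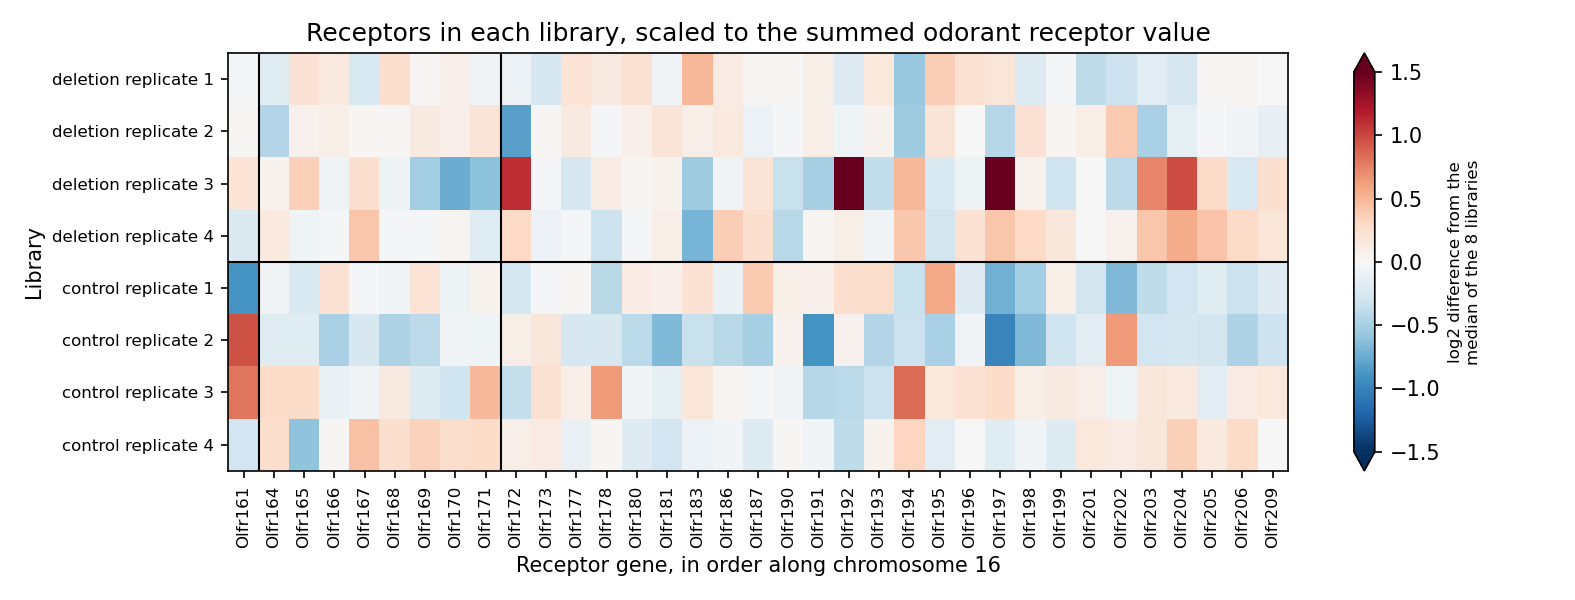
Heat map of the 35 receptors (columns, in order along chromosome 16) in the 8 libraries (rows, deletion above control), as the log2 difference from the median of the 8 after scaling each library to its summed odorant receptor value. The row of deletion replicate 3 holds red cells at Olfr172, Olfr192 and Olfr197 and blue cells in Olfr169 to Olfr171, and the row of control replicate 2 is blue in much of its length.

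Control replicate 2 was low across most of the receptors. It was the lowest of the 8 libraries in 25 of the 35, against 40.4% of all 1038 tested receptors. After scaling to the summed odorant receptor value, control replicate 2 was the lowest in 17 of the 35. Its median log2 difference from the 8-library median was then -0.29 over the 35. Neither value is given here for all tested receptors on that scale. A log2 difference of at least 0.5 in either direction was seen in 17.1% of the 35 and 22.4% of all 1038 tested receptors. The lower sum of mature neuron markers in this library, given above, moved with these values, and its part in them was not tested.

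The receptor at the low end of the chromosome, Olfr161, was among the least expressed of all, ranking 1023rd of 1038 with a control mean of 8.524 scaled reads per kilobase. It had 49.82, 50.65, 55.92 and 44.75 scaled reads in deletion libraries and 27.54, 80.41, 97.88 and 37.37 in control libraries. The deletion libraries all lay inside the range of the controls, and the log2 fold change was -0.09 ± 0.36 (SE), or 0.10 without control replicate 2.

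Promoter windows of 300 bases were available from RefSeq (GRCm38.p6) for 26 of the 35 genes, and most began before the coding exon and not at the first annotated exon. The homeodomain core TAATNA, the kind of site that Lhx2 binds, was found on either strand in 16 of the 26 windows (61.5%), in 65.9% of 944 receptor windows and in 26.5% of 32851 windows of all genes. The paired Ebf half-sites CCCNNGGG were in 0 of 26, in 3.07% of receptor windows and in 13.7% of all windows. The TATA core TATAAA, whose matches can overlap those of TAATNA, was in 42.3% of the 26 windows, 41.2% of receptor windows and 13.6% of all windows. These shares describe letters in the windows and not bound sites. The window of Olfr172 is shown since it held as many TAATNA matches as any of the 26, with the matches in capitals. It lies at chr16:58761191-58761490, minus strand, 1936 bases past the first annotated start.
Olfr172 window: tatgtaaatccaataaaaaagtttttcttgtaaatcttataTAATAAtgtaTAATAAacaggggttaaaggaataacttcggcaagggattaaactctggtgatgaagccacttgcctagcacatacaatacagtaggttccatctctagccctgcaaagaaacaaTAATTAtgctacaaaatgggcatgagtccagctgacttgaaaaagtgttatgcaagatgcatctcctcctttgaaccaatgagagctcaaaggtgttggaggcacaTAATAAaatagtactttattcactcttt

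The genes that carry receptor signals and control receptor choice were given beside the receptors. Of 18 genes of signal transduction and receptor trafficking, among them the G protein subunit Gnal, the cyclase Adcy3, the channel subunit Cnga2 and the chaperones Rtp1 and Rtp2, 0 rose and 0 fell in limma (Benjamini-Hochberg), with log2 fold changes from -0.07 to 0.13. Of 14 genes of receptor gene regulation, among them Lhx2, Ldb1 and the Ebf factors, 0 rose and 0 fell, with values from -0.19 (Ebf4) to 0.14 (Cbx3). Ebf4 alone of both lists had an unadjusted limma p under 0.05, at 0.0257.

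Genes beside the arrays were likewise uncalled. Of 31 tested genes other than receptors within 500 kb of the clusters, 0 rose and 0 fell in limma (Benjamini-Hochberg). At an unadjusted limma p under 0.05 there was 1, Lamp3, at 0.0188, against 3.5% of all tested genes. Lamp3 had few reads, 4.739 to 11.91 scaled reads in deletion libraries and 13.86 to 25.76 in control libraries. Its log2 fold change was -1.06. The other chromosome 16 receptors, Olfr15 and Olfr19, had log2 fold changes of 0.0067 and 0.077. Of the 9 pseudogene symbols in the number range 3 were tested and 0 were called, and 1 of them, Olfr188-ps1, had 176.5, 211.4, 91.94 and 167.1 scaled reads in deletion libraries and 256.8, 145.1, 230.5 and 181.9 in control libraries.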

How the data were processed

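Olfactory mucosa RNA of 4 deletion and 4 control samples was analysed. Per the labels, total RNA (RNeasy) went into TruSeq Stranded Total RNA libraries depleted of ribosomal RNA, which keeps unspliced RNA. Per the submitters' processing notes, the build was GRCm38.p6 and the tools were STAR 2.6.0 and DESeq2. The sources used here give neither how reads were assigned to genes nor by which strand. The authors' deposited value for a gene in a sample is a signal, its read count over a factor of that library. Whole reads were recovered for 100% of values within a tolerance of 0.001. The authors' deposited comparison holds a base mean signal, a log2 fold change with its error, a score, p-values and adjusted p-values; that log2 fold change has the opposite sign, control over deletion.

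Columns were matched to samples by group and replicate number; the deletion columns carry another abbreviation than the titles and were matched because every other column names the control. The design named limma for scaled values. limma 3.58.1 (R 4.3.3) with trend and robust moderation was run on log2(scaled reads + 1) for 21974 genes that passed filterByExpr (edgeR 4.0.16, minimum count 10), adjusted by Benjamini-Hochberg at 0.05, and tested on simulated data. edgeR's quasi-likelihood test on recovered reads (16 genes called over all genes) and DESeq2 1.42.0 (23 genes called) were alternatives. Coding sequences came from GENCODE M21 (54075 of 54982 rows matched) and were aligned globally with Biopython 1.88. Protein sequences were translated from in-frame transcripts. Depth limits precision of the lowest receptors: reads summed over 8 libraries ran from 159 (Olfr197) to 27818 (Olfr166).

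The receptors named with all values were the 6 highest per kilobase, the 4 with the smallest p in each direction, and the 3 with the largest and the 3 with the smallest control coefficient of variation among those with a control mean over 100 scaled reads. Olfr161, Olfr165, Olfr172, Olfr192, Olfr198, Olfr203, Olfr204 and Olfr188-ps1 were added after their values were seen. The receptors and lists were chosen with earlier results of these data known.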

Additional observations from a re-analysis of the deposited data

Results flagged for a closer look

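Of 72 groups of 4 libraries, 5 held a library whose gap to the nearest other was large for the range of the group by Dixon's criterion, and chance flags about 1 in 20. In deletion replicate 3, Olfr192 stood high at 320.4 scaled reads and Olfr197 at 77.72, while Olfr170 stood low at 110.9 and Olfr191 at 323.2. In control replicate 4, Olfr172 stood high at 42.28 against 37.26 to 37.89 in the other controls. Deletion replicate 3 is the library with 15300 scaled reads of Xist, and the part of this in those values was not tested.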

How the results depend on the processing

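The count of receptors called was 0 under each of 19 alternatives, with 35 receptors tested in each except the filter on a mean of 50 scaled reads, which tested 32. Receptors at an unadjusted p under 0.05 numbered 0 in limma, 1 in edgeR and 1 in DESeq2. With the replicate number as a block they numbered 2 (Olfr197 and Olfr204), against 4.01% of all genes. Leaving out each library in turn gave 0 to 4, with 4 without control replicate 3. The share of all genes in the fits with 1 library left out is not given here, so those counts have no background. Same-numbered deletion and control samples correlated at 0.33, 0.09, -0.17 and 0.05 in their deviations, so the numbers were not taken to pair samples, and the block called 0 receptors at the adjusted threshold.

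The median log2 fold change of the 35 lay between -0.0078 and 0.25, the count higher in deletion libraries between 17 and 30, and the difference in summed CPM between -3.468% and 10.8% when 1 library was left out. Of 322 recomputed fold changes of 17 named receptors, 300 kept their direction and 22, in 8 receptors, reversed. Olfr195 reversed to -0.006988 when scaled to the receptor sum, -0.03476 in edgeR and -0.03874 in DESeq2. Leaving out 1 library gave -0.28 to 0.0133 for Olfr164, -0.02905 to 0.32 for Olfr166, -0.09134 to 0.25 for Olfr168 and -0.24 to 0.13 for Olfr169. It gave -0.12 to 0.18 for Olfr170, -0.32 to 0.06183 for Olfr183, -0.35 to 0.19 for Olfr194 and -0.20 to 0.27 for Olfr195. Of those that kept their sign, Olfr180 ran from 0.09 to 0.38, Olfr181 from 0.17 to 0.53, Olfr186 from 0.16 to 0.45, Olfr187 from 0.0097 to 0.42, Olfr205 from 0.225 to 0.42 and Olfr197 from 0.52 to 1.52. Olfr171 ran from -0.46 to -0.13, Olfr173 from -0.21 to -0.05 and Olfr190 from -0.23 to -0.0966. The cause was not tested. Counting depth was lowest for Olfr197, at 159 reads over 8 libraries, of which 82 were in deletion replicate 3.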
